A study of Caenorhabditis elegans with 4 samples.

Results

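NHR-237 binding sites on chromosome II of Caenorhabditis elegans were examined in chromatin immunoprecipitation sequencing (ChIP-seq) peak lists from first-stage (L1) larvae. The sites were chosen by chromosome alone, as every peak listed on II, which gave 178 of 1119 peaks (15.9%) in the combined list. The same rule gave 2451 of 16621 peaks (14.7%) in the list of ChIP replicate 1 and 2591 of 18457 peaks (14.0%) in that of ChIP replicate 2. The combined list, made by the authors from both libraries, is the main set, and the replicate lists are used to ask how well its sites repeat.

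The animals were hermaphrodites of strain OP228, which carries wgIs228(nhr-237:TY1 EGFP FLAG;unc119) in an unc119(ed3) background. Per the labels, a recombineered transgene, in which NHR-237 is joined to the TY1, green fluorescent protein (EGFP) and FLAG tags, was bombarded into the mutant together with an unc-119 rescue. All 4 samples share this genotype, the L1 stage (with a further term in the stage label whose meaning is not given) and growth at 20 °C per the labels' protocols, and 2 are ChIP libraries made with anti-GFP antibodies and 2 are inputs, which were not analysed here. The series as analysed here has no untagged control, and where the transgene inserted was not analysed here. Whole larvae were used, so a site may be bound in some of their cells only. The labels do not tell if the 2 ChIP libraries were grown as separate cultures, and their agreement may be that of technical repeats.

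Nuclear hormone receptors are transcription factors that bind DNA through a zinc-finger domain and whose activity is in many cases controlled by a small lipophilic ligand. The family is greatly expanded in C. elegans, and for most of its members no ligand is known. The autosomes of this species have a common layout, with a central part of low recombination that is rich in conserved and widely expressed genes, between 2 arms of higher recombination that hold more repeats and more fast-evolving gene families. In the RefSeq gene table (assembly WBcel235) the nhr-237 gene is on chromosome V, so its own locus is not among the sites described here.

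Coordinates are WormBase WS220, as the file headers give them. The chromosome was taken to end at the last peak end in any list, 15272594, which makes it 15.3 Mb long. The left arm is the first 25% of the length (3.82 Mb), the right arm the last 25%, and the centre the stretch between them. Each peak has a number, which is taken here as its rank, with 1 for the strongest peak of a list. It also has a deposited score, which is the authors' own and has no name in the file. On II, 79 of 178 combined peaks (44.4%) share the highest score of 3.02, against 342 of 749 (45.7%) on the other autosomes, so the number is used for ranking. Below the highest score the 2 orders differ in places. Peak 524 had a score of 2.54, peak 713 a higher one of 2.68 and peak 718 one of 2.46. Strong and weak refer to the number throughout. The lists hold no read depth, which is unknown here. Genes, exons and sequences at the sites were not analysed here, because no genome or annotation of WS220 was at hand.

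The number of combined sites on chromosome II was not shown to differ from that of the other autosomes, and they were unevenly shared between its arms. Its combined peaks numbered 11.7 per Mb, beside 11.1 on the other 4 autosomes (I, III, IV and V) together. The ratio was 1.05 and missed the threshold of 0.05 (two-sided exact binomial test, p = 0.58, adjusted p = 0.70). The direction turned among the stronger 50% of the list (5.50 against 5.53 per Mb) and in the whole replicate 2 list, where II had 169.7 against 181.9 per Mb and the difference passed (exact binomial adjusted p = 0.0036). Adjusted p-values here are by Benjamini-Hochberg over the 6 results tested. These tests treat peaks as independent, which neighbouring peaks need not be, and they cover the counting of peaks only. The left arm held 20 peaks (11.2% of the chromosome's total, 95% Wilson interval 7.39 to 16.7), the centre 110 (61.8%, 54.5 to 68.6) and the right arm 48 (27.0%, 21.0 to 33.9). Per length this came to 5.24 peaks per Mb on the left arm, 14.4 in the centre and 12.6 on the right arm.

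The centre of II held most of its sites, and its share was not shown to differ from that of the other autosomes. That share of 61.8% stood beside 60.1% for the other 4 together (Fisher's exact adjusted p = 0.73, odds ratio 1.07), whose single values ran from 56.0% on III to 67.6% on V. Density in the centre was 1.62 times that of the arms on II, against 1.51 times on the other autosomes. In the full replicate lists the central share of II was 60.0% and 58.5%, against 59.7% and 55.4% elsewhere on the autosomes, and the difference passed in replicate 2 (Fisher's exact adjusted p = 0.0098). Among the stronger 50% of the combined list it turned, to 57.1% against 58.9% (Fisher's exact adjusted p = 0.81).

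The left arm was the sparse end of the chromosome. Of the 68 arm peaks on II, 20 were on the left arm (29.4%, interval 19.9 to 41.1) where arms of equal length and equal density would give 50%. On the other autosomes 158 of 299 arm peaks were on the left arm (52.8%, interval 47.2 to 58.4), and the shares differed (odds ratio 0.372, two-sided Fisher's exact adjusted p = 0.0028). The right arm of II held 2.40 times as many peaks as the left. That ratio was 0.875 on I, 1.36 on III, 0.660 on IV and 0.750 on V. Sparse arms were also seen on chromosome V, which had 6.12 peaks per Mb on its left arm and 4.59 on its right, so the density of the left arm of II (5.24 per Mb) lay between them. The arms of I, III and IV held 7.55 to 14.2 per Mb. The right arm of II, at 12.6 per Mb, was below that of III (14.2) and above those of I (9.30), IV (7.55) and V (4.59).

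**Figure D1:**
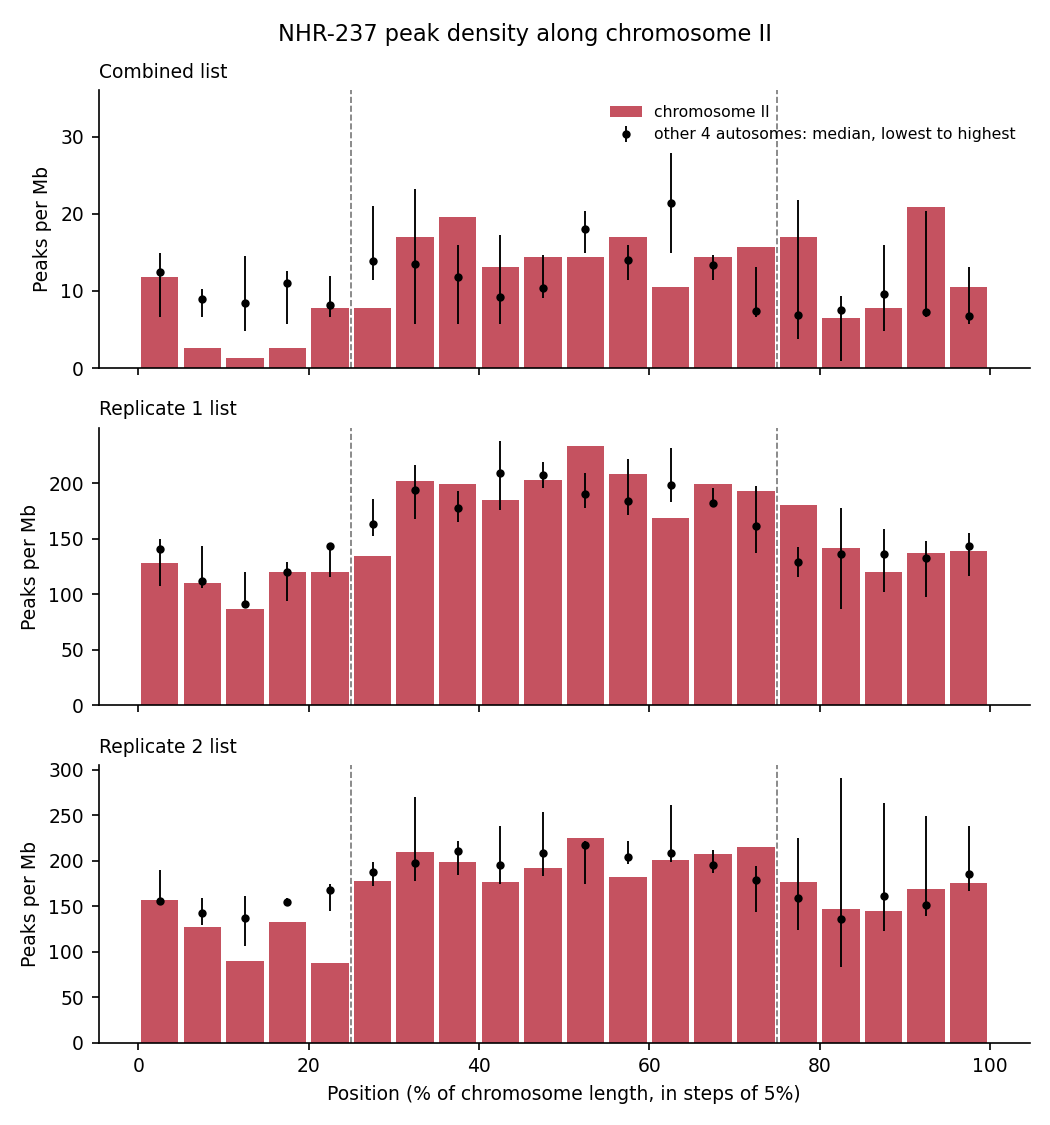
Peaks per Mb in successive steps of 5% of chromosome length (horizontal axis) in the 3 lists, with red bars for chromosome II, black points for the median of the other 4 autosomes, vertical lines from their lowest to highest value and dashed lines at 25% and 75%. In the combined and replicate 2 lists the red bars from 5% to 20% of the length lie below the lowest of the other autosomes. Those of replicate 1 lie within their range or just under it.

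The sparseness of the left arm lay away from its tip. The first 0.5 Mb held 8 combined peaks, and the next 3 Mb, from 0.5 to 3.5 Mb, also held 8, or 2.67 per Mb. The remaining 0.318 Mb of the arm held 4. As a share of length, the stretch from 5% to 20%, picked after its values were seen, held 5 combined peaks on II (2.18 per Mb). On I it held 21 (9.30 per Mb), on III 23 (11.1), on IV 29 (11.1) and on V 18 (5.74). The shortfall there was smaller in the full replicate 2 list and was not seen in that of replicate 1. Replicate 1 listed 106 peaks per Mb in that stretch of II, within the 96.3 to 122 per Mb of the other autosomes. Replicate 2 listed 117 per Mb, below the 139 to 148 of the others.

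One empty stretch of the left arm was the longest on any chromosome. No combined peak lay between 1820320 and 2889203, a distance of 1.07 Mb. The next longest were 0.892 Mb and 0.683 Mb, both on V, and the longest on I, III and IV were 0.540, 0.402 and 0.516 Mb. The stretch was not empty in the replicate lists, where replicate 1 had 105 peaks (98.2 per Mb) and replicate 2 had 130 (122 per Mb). The strongest of them were numbers 655 and 811 of their lists, and 20 (19.0%) and 21 (16.2%) of them overlapped a peak of the other replicate. Over all chromosomes such overlap was found for 38.8% of replicate 1 peaks and 36.2% of replicate 2 peaks. The stretch was picked for lacking combined peaks, and that list was made from these libraries. Weak ranks and low overlap there thus follow in part from the choice. In the next longest stretch, on V, 15 of 69 replicate 1 peaks and 16 of 63 replicate 2 peaks overlapped the other replicate. Of the 7 stretches over 300 kb without a combined peak on II, 4 had their midpoint on the left arm. Besides the longest, these ran from 603847 to 1084869 (481 kb), from 1320849 to 1819869 (499 kb) and from 3077354 to 3482202 (405 kb). The other 3 were in the centre, from 7529499 to 7887176 and from 9283212 to 9603307, and on the right arm, from 13448034 to 13834316. Such stretches numbered 7 on I (3 on the left arm), 6 on III (1), 11 on IV (1) and 18 on V (5), so their number on II was not unusual.

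The 20 left-arm peaks had middling ranks for the chromosome. Their median number was 568, against 631 in the centre and 511 on the right arm, and 9 of 20 had the highest score, against 44 of 110 and 26 of 48. None of the 12 chromosome II peaks among the 100 strongest combined peaks was on the left arm, while 10 were in the centre and 2 on the right arm. The left arm held 11.2% of the chromosome's peaks, so few of 12 would fall there by share alone. In each replicate list, 1 left-arm peak of II was among the 100 strongest. The strongest left-arm site was peak 101, from 2973861 to 2974310, which ranked 91 in replicate 1 and 185 in replicate 2. It was followed by peak 119 (1320399 to 1320848, numbers 154 and 99), peak 130 (255115 to 255564, numbers 148 and 146) and peak 191 (216548 to 216997, numbers 314 and 183). The sites at 1819870 to 1820319 (peak 416) and 2889204 to 2889653 (peak 469) flank the longest empty stretch. Peak 416 was number 445 and 540 in the replicates, and peak 469 was number 522 and 477. The bounds of the arms did not cut through dense groups. The last left-arm peak (number 687) lay 9.85 kb inside the bound and the first central peak (number 945) 112 kb beyond it, and at the other bound the nearest peaks lay 106 kb before (number 664) and 80.5 kb after it (number 696).

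The same skew was asked of each replicate on its own. With the whole lists, 44.0% of the arm peaks of II were on the left arm in replicate 1 and 42.2% in replicate 2, against 48.2% and 46.7% on the other autosomes (Fisher's exact adjusted p = 0.053 and 0.022). When each list was shortened to its 1119 strongest peaks, the length of the combined list, replicate 1 had 23 left and 43 right (34.8%) and replicate 2 had 19 left and 50 right (27.5%). The other autosomes then stood at 50.2% and 53.2% (Fisher's exact adjusted p = 0.084 in replicate 1 and 0.00063 in replicate 2). The direction was thus shared by both libraries, while in replicate 1 the difference did not pass the adjusted threshold in either form. Among the single autosomes, IV had a lower left share than II in the whole replicate 2 list, at 38.7%. Because the combined list was made from these same libraries, the 3 lists are not independent of each other.

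**Figure D2:**
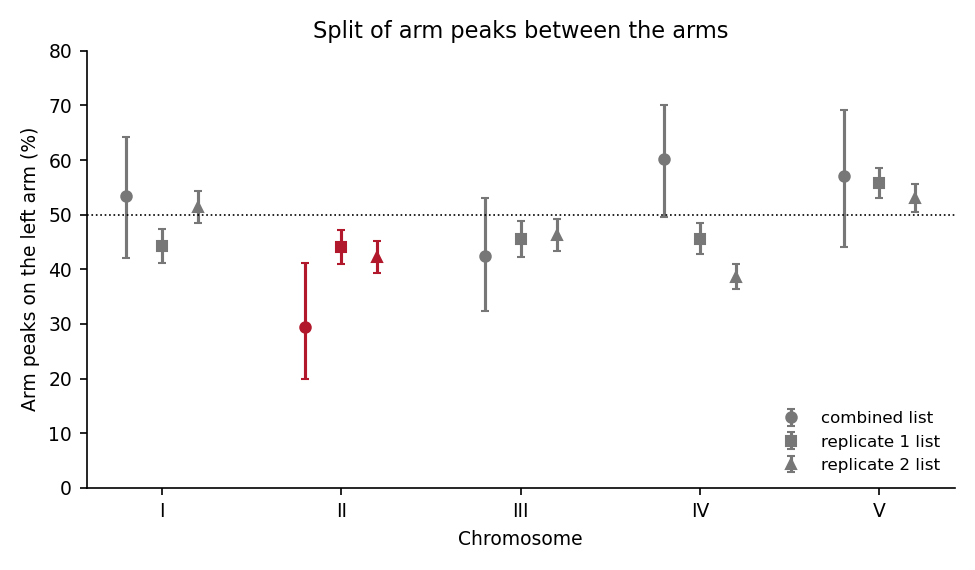
Share of arm peaks that lay on the left arm (vertical axis, percent) for each autosome in the combined list (circles), the replicate 1 list (squares) and the replicate 2 list (triangles), with 95% Wilson intervals and a dotted line at 50%. Chromosome II (red) has the lowest share in the combined list, 29.4%, and 44.0% and 42.2% in the replicate lists.

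Within each replicate list the left share on II was lowest among peaks 1 to 500. In replicate 1, the left share of arm peaks on II was 31.0% among peaks 1 to 500 (9 left, 20 right), 37.8% among peaks 501 to 1119 (14 left, 23 right), 35.9% among peaks 1120 to 5000 (70 left, 125 right), 43.2% among peaks 5001 to 10000 (128 left, 168 right) and 49.8% among peaks 10001 to 16621 (211 left, 213 right). In replicate 2 it was 20.7% among peaks 1 to 500 (6 left, 23 right), 32.5% among peaks 501 to 1119 (13 left, 27 right), 35.8% among peaks 1120 to 5000 (64 left, 115 right), 37.8% among peaks 5001 to 10000 (102 left, 168 right) and 48.3% among peaks 10001 to 18457 (269 left, 288 right). The weakest class was thus evenly split in both libraries. The other autosomes, pooled, went from 50.0% to 48.0% in replicate 1 and from 53.9% to 47.0% in replicate 2 over the same classes. Single autosomes were below II in some classes. In replicate 2, IV had 33.3%, 35.0% and 40.8% in the classes from peak 1120 on, and III had 31.6% among peaks 501 to 1119. In replicate 1, I and IV were below II in the classes from peak 5001 on. The combined list of II had 28.6% among peaks 1 to 300, 28.0% among 301 to 600 and 31.0% among 601 to 1119. No test of the trend over classes was made.

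**Figure D3:**
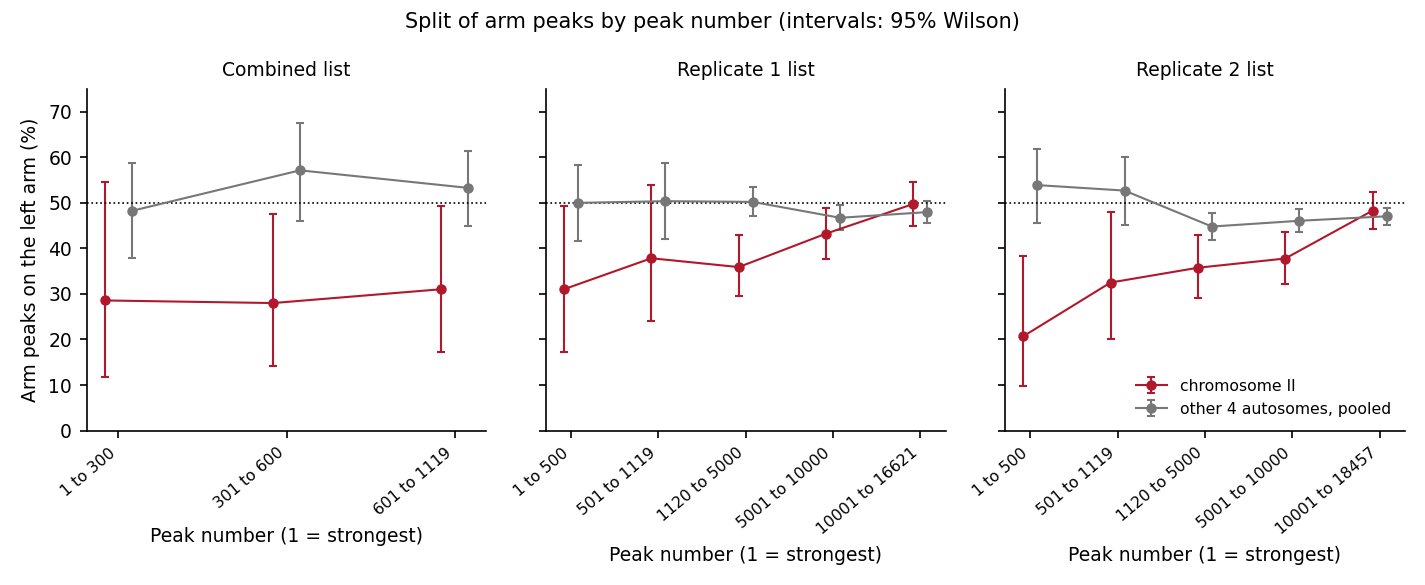
Share of arm peaks on the left arm (vertical axis, percent) by class of peak number (horizontal axis, strongest class at the left) for chromosome II (red) and the other 4 autosomes pooled (grey), with 95% Wilson intervals. The red points go from 31.0% to 49.8% in replicate 1, with a step down from 37.8% to 35.9%, and from 20.7% to 48.3% in replicate 2, while the grey points stay between 44.8% and 53.9% in these 2 lists. In the combined list the red points are at 28.6%, 28.0% and 31.0%.

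In windows of 1 Mb, counted from the chromosome start, chromosome II ranged from 2 to 22 combined peaks over 15 full windows, with a median of 10 (SD 5.82). The 65 full windows of the other autosomes ranged from 3 to 26, with a median of 11 (SD 4.94). The emptiest windows of II were those from 2 to 3 Mb, with 2 peaks, from 1 to 2 Mb, with 3, and from 12 to 13 Mb, with 7. Windows of 3 peaks or fewer numbered 2 of 15 on II and 2 of 65 on the other autosomes, the latter both on V. In the emptiest window replicate 1 had 111 peaks and replicate 2 had 129, of which 3 each were among the 1119 strongest of their list.

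The densest windows of II were those from 5 to 6 Mb (22 peaks), from 9 to 10 Mb (18) and, tied, from 11 to 12 Mb and from 14 to 15 Mb (17 each). Windows of 16 or more peaks numbered 5 of 15 on II and 11 of 65 on the other autosomes. By chromosome these were 4 of 15 on I, 4 of 13 on III, 1 of 17 on IV and 2 of 20 on V, so II was much like I and III. The window from 5 to 6 Mb held sites of all strengths, from peak 14 to peak 1110 with a median number of 577, and 9 of its 22 peaks belonged to 4 runs of close neighbours. Counting each run once left 17. Both replicates listed many peaks there, 211 and 213, of which 23 each were among their 1119 strongest.

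The dense window at the right end was concentrated in its first part. Between 14.0 and 14.5 Mb lay 14 combined peaks, from 14040224 to 14441472, and between 14.5 and 15 Mb lay 3. The highest count in any window of 0.5 Mb was 14 on III, 15 on I, 12 on V and 10 on IV. Of these 14 sites, 9 had the highest score, and their median number was 458.5. The strongest was peak 82, from 14154226 to 14154675, which ranked 127 in replicate 1 and 59 in replicate 2. Peak 225 (14040224 to 14040673) was number 311 and 211, and peak 278 (14399476 to 14399925) was number 215 and 298. Replicate 1 had 14 and replicate 2 had 13 of their 1119 strongest peaks in the same 0.5 Mb. The stretch of the same length that held fewest was that from 2 to 2.5 Mb, with 0 combined peaks.

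Of the 25 chromosome II peaks with the lowest numbers, 17 were central and 4 on each arm, and all 25 had the highest score. The centre held 110 of all 178 peaks, or 61.8%, and its median number (631) was the weakest of the 3 parts. They ranged from peak 2 to peak 191 of the combined list, and their lowest ranks were 314 in replicate 1 and 336 in replicate 2. Peak 2, from 10563403 to 10563631, ranked 2 in replicate 1 and 3 in replicate 2, and its centre lay 0.5 bp and 11 bp from those of the replicate peaks. Peak 5, from 8561286 to 8561482, was number 4 and 11. Peak 14, from 5844693 to 5844806, was number 17 and 8. After these came a gap in the ranking to peak 53, so II had 3 of the 50 strongest combined sites within its first 14 and none in the rest.

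Another 9 of the 100 strongest combined peaks were on II. Peak 53 (9112778 to 9113227) ranked 43 in replicate 1 and 74 in replicate 2, and peak 55 (8185075 to 8185218) was number 95 and 54. Peak 56 (6588839 to 6589288) was number 63 and 76, peak 75 (10551928 to 10552377) was number 90 and 68, and peak 79 (6951310 to 6951759) was number 107 and 70. The 2 on the right arm were peak 82, described above, and peak 90 (11545350 to 11545463, numbers 156 and 55). Peak 92 (9282762 to 9283211, numbers 59 and 196) was the stronger in replicate 1, and peak 95 (5543291 to 5543740, numbers 144 and 62) in replicate 2. With 12 of the 100 strongest combined peaks (12.0%, interval 7.0 to 19.8), II stood between V with 10 and IV with 13, while I had 15 and III 23. Its share was 13.0% of peaks 101 to 300, 17.7% of peaks 301 to 600 and 16.8% of peaks 601 to 1119.

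Of the remaining sites of the 25 outside the left arm, some had close ranks in the 2 libraries and others did not. Peak 126 (8787329 to 8787778) was number 111 and 131, peak 149 (5660857 to 5661306) was 149 and 144, and peak 157 (9603308 to 9603757) was 160 and 180. Peak 190, on the right arm from 14794856 to 14795305, was number 201 and 167. Peak 105 (6348344 to 6348793) ranked 51 in replicate 1 and 336 in replicate 2, the widest gap among the 25. Peak 106 (11967420 to 11967869) went the other way, at 207 and 73. Peaks 141 (4376663 to 4377112, numbers 103 and 263), 161 (4299199 to 4299648, 213 and 133) and 178 (7104893 to 7105342, 155 and 220) complete the list. Peak 201, just outside it, was number 284 and 143. Of the 25, 11 ranked higher in replicate 1 and 14 in replicate 2.

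Narrow peaks marked the top of the ranking. Most combined peaks have the common width of 450 bp, and 5 of 178 on II were narrower, namely peaks 2 (229 bp), 5 (197 bp), 14 (114 bp), 55 (144 bp) and 90 (114 bp). Peaks 53, 56, 75, 79, 82, 92 and 95 had the common width. The other autosomes held 31 narrower peaks among 749, and chromosome V 2 of those. The ranks of these 31 were not analysed here.

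Sites within 2 kb of each other, measured from the end of one peak to the start of the next, formed 8 runs on II with 18 peaks. This was 10.1% of the chromosome's peaks (interval 6.49 to 15.4), against 105 of 749 (14.0%, interval 11.7 to 16.7) on the other autosomes, a difference that did not pass the test (odds ratio 0.690, Fisher's exact adjusted p = 0.36). The single autosomes ran from 8.09% on V to 20.9% on I. None of the 8 runs was on the left arm, 5 were in the centre and 3 on the right arm. The largest distance inside a run was 1610 bp and the smallest distance just too wide was 2106 bp. In 5 of the 8 runs a pair of members overlapped each other, by 63 to 249 bp. When overlapping peaks were first merged, 5.78% of II and 12.5% of the other autosomes had a neighbour, and the difference passed the threshold (Fisher's exact adjusted p = 0.021). Among the stronger 50% of the list the direction turned, with 11.9% on II and 9.68% elsewhere (Fisher's exact adjusted p = 0.70).

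The runs of 3 were at 5660857 to 5662216 (1360 bp) and at 9060219 to 9062147 (1929 bp). In the first, peaks 149, 703 and 735 had counterparts in both libraries, numbered 149, 600 and 472 in replicate 1 and 144, 881 and 2614 in replicate 2. In the second, the combined numbers were 260, 1045 and 306, and those of replicate 1 were 125, 568 and 334, while replicate 2 ranked the first of them much lower, at 1645, 4116 and 331. The run with the strongest site, from 5844693 to 5845193, joined peak 14 to peak 368. Both libraries listed 2 overlapping peaks there, numbers 17 and 1081 in replicate 1 and 8 and 253 in replicate 2. The run from 5543291 to 5543941 held peaks 95 and 382, with 144 and 2505 in replicate 1 and 62 and 168 in replicate 2. On the right arm, peak 90 had peak 752 as a neighbour 1610 bp away in a run from 11545350 to 11547523. The run from 11634089 to 11636075 held peaks 201 and 477, and that from 14251290 to 14251944 held peaks 335 and 665. The last, from 5320096 to 5322307, held peaks 443 and 558, which were 559 and 649 in replicate 1 and 370 and 523 in replicate 2.

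The combined sites of II were nearly all present in both replicates, which is no independent check, since the combined list was made from these libraries. Of 178, 177 met a replicate 1 peak (overlap of at least 1 bp) and 175 one of replicate 2, and 174 (97.8%, interval 94.4 to 99.1) overlapped both. The other autosomes had 744 of 749 (99.3%, interval 98.4 to 99.7). Midpoints of matched peaks were a median of 11 bp (replicate 1) and 9 bp (replicate 2) apart. The 4 exceptions were peak 642 (9273960 to 9274409), peak 989 (6992847 to 6993296) and peak 1061 (13156854 to 13157303), which replicate 2 lacked, and peak 971 (12768232 to 12768681), which replicate 1 lacked. They ranked 220, 358 and 654 in replicate 1 and 576 in replicate 2. The nearest peak of the library that lacked the site was 732, 942, 2278 and 707 bp away, in the order given. Because read depth is unknown, a site missing from one list is not shown to be unbound.

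Ranks of the shared sites agreed loosely between the libraries. The larger of the 2 numbers was a median of 1.73 times the smaller over the 174 sites, against 1.91 times on the other autosomes, and 95 of 174 (54.6%) were within a factor of 2. On II, the members of each of 5 overlapping pairs were matched to the same replicate peaks, so the 174 sites are not all separate matches. Spearman's rho of the numbers was 0.41 across these sites, a description that excludes the many weak peaks left out of the combined list. It was 0.51 on I, 0.58 on III, 0.41 on IV and 0.28 on V. The 2 libraries were balanced, with 86 sites ranked higher in replicate 1 and 88 in replicate 2. For the 12 sites among the first 100, the larger number was a median of 1.94 times the smaller, and 6 (50.0%) were within a factor of 2. Sites whose numbers differed more than 5-fold numbered 29, of which 22 were among combined peaks 601 to 1119 and none among the first 100. The widest gap was at peak 602 on the left arm (3502617 to 3503066), number 304 in replicate 1 and 10716 in replicate 2. Peak 673 near the right end (15165766 to 15166215) was number 393 and 11578. The widest gap in the other direction was at peak 1054 (8143218 to 8143667), number 8362 and 583. These sites were chosen after their values were seen.

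**Figure D4:**
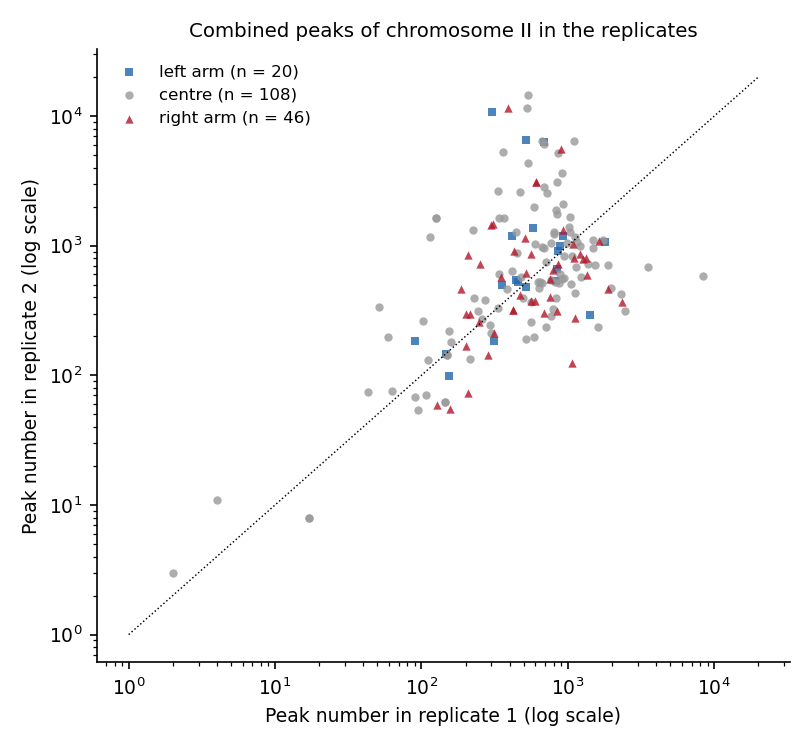
Peak number in replicate 1 (horizontal, log scale) against that in replicate 2 (vertical, log scale) for the 174 combined peaks of chromosome II found in both, by arm and centre, with the dotted line at equal numbers. The strongest sites lie at the lower left on both sides of the line, and 43 points have a number above 1000 in replicate 2 only and 26 in replicate 1 only. The members of each of 5 overlapping pairs fall on the same point.

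Most but not all strong replicate peaks were in the combined list. Of the 181 chromosome II peaks among the 1119 strongest of replicate 1, 149 (82.3%, interval 76.1 to 87.2) were in the combined list, and of 170 in replicate 2, 131 (77.1%, interval 70.2 to 82.7). The other autosomes had 81.1% and 74.8%. This left 32 strong peaks of replicate 1 and 39 of replicate 2 on II out of the combined list. The strongest peak of replicate 1 left out was number 467, on the right arm from 14496701 to 14497120, and the nearest replicate 2 peak, 187 bp away, was number 6304. The next were numbers 618 (14804339 to 14804758), 655 (2454710 to 2455129), 672 (11634925 to 11635344) and 691 (9161032 to 9161451). Number 655 was the best replicate 1 peak inside the longest empty stretch, and number 672 lay between the members of the run at 11634089. In replicate 2 the strongest peak left out was number 392, from 10556594 to 10557049, and it overlapped only number 16579 of replicate 1. The next were numbers 416 (4827985 to 4828440), 495 (11473462 to 11473917), 586 (7050056 to 7050511) and 601 (9115581 to 9116036), each of which overlapped a replicate 1 peak numbered from 7610 to 14599. The strongest replicate 2 peaks on II that met no replicate 1 peak at all were, after number 576 described above, numbers 642 (8819169 to 8819624), 688 (31465 to 31920), 736 (5017018 to 5017473) and 782 (5819683 to 5820138).

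Agreement of the full replicate lists on II was a little below that of the other autosomes for replicate 1 peaks and was not shown to differ for replicate 2 peaks. The values over all chromosomes were 38.8% and 36.2%. On II, 902 of 2451 replicate 1 peaks (36.8%, interval 34.9 to 38.7) overlapped replicate 2, against 39.8% (38.9 to 40.8) on the other autosomes (odds ratio 0.879, Fisher's exact adjusted p = 0.016). The single autosomes had 40.9% on I, 41.3% on III, 41.4% on IV and 36.7% on V, so the value for II is not particular to it. In the other direction, 953 of 2591 replicate 2 peaks (36.8%, interval 34.9 to 38.7) overlapped replicate 1, against 35.7% elsewhere (odds ratio 1.05, adjusted p = 0.47 by the same exact test). The first difference did not pass under a stricter definition of overlap, with shortened lists, or with III or IV left out of the comparison. A peak is more likely to meet one of the other list where that list covers more of the chromosome. Replicate 2 peaks covered 7.39% of II and 7.94% of the other autosomes, and replicate 1 peaks 6.56% and 6.41%.

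The low agreement of replicate 1 peaks was measured on the left arm. There, 115 of 432 replicate 1 peaks (26.6%, interval 22.7 to 31.0) overlapped replicate 2, against 37.3% (35.2 to 39.4) on the left arms of the other autosomes (odds ratio 0.611, Fisher's exact adjusted p = 0.00015). In the centre the shares were 39.1% and 41.1%, and on the right arm 38.6% and 38.5%. With left arms left out, the chromosomes stood at 39.0% and 40.5% (Fisher's exact adjusted p = 0.45). Replicate 2 peaks gave 27.1% (interval 23.2 to 31.4) on the left arm of II and 31.3% (29.5 to 33.1) on the others, which did not pass (Fisher's exact adjusted p = 0.15). The other list's cover also differed, with replicate 2 peaks over 5.25% of the left arm of II and 6.66% of the other left arms. Its part in the result was not tested. On the right arm, 36.2% of replicate 2 peaks of II overlapped replicate 1, against 30.8% elsewhere. For replicate 1 peaks, the single left arms of the other autosomes ran from 34.2% on V to 41.2% on I. For replicate 2 peaks, the right arm of V had 27.6%, close to the left arm of II. These comparisons by arm were added after the data were seen.

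**Figure D5:**
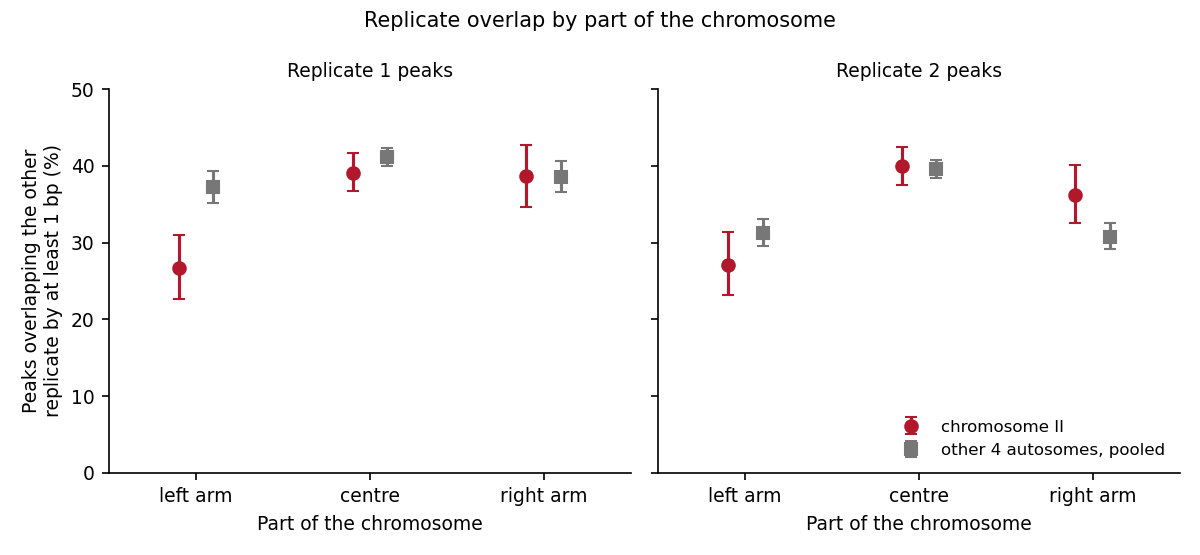
Share of peaks (vertical axis, percent) overlapping the other replicate by at least 1 bp, by part of the chromosome, for chromosome II (red circles) and the other 4 autosomes pooled (grey squares), with 95% Wilson intervals. Among the values drawn, the left arm of chromosome II has the lowest for both replicates, 26.6% and 27.1%.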

How the data were processed

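ChIP-seq of tagged NHR-237 in L1 larvae was analysed from 3 peak lists, 1 for each of the 2 ChIP libraries and 1 combined. Per the file headers, coordinates are WormBase WS220, and the source column reads spp_via_IDR. SPP is a peak caller, and the irreproducible discovery rate (IDR) keeps peaks that rank alike in replicates. For aligner, filters, use of input and settings, the sources used here give nothing. The deposited score, 1 per peak, comes from the authors' caller in a unit that the file does not name, and the peak number in the files was used for ranking. Depth is unknown.

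Peaks were placed by their midpoint. Overlap means at least 1 bp. Where several peaks overlapped, the one with the lowest number was taken. Chromosome II was compared with the other autosomes by two-sided exact binomial (density) and Fisher's exact tests (shares), with Benjamini-Hochberg adjustment over 6 results and a threshold of 0.05. Under an alternative, only that result's p was replaced. Intervals are 95% Wilson and cover the counting of peaks. Named sites are the 25 lowest-numbered peaks, the 3 densest and emptiest windows, the runs, the sites a replicate lacked and the 5 strongest unshared replicate peaks of each kind. The chromosome, its parts and the results to report were chosen with earlier results of these data known. Functions were tested on simulated data. Tests ran in SciPy 1.17.1, with pandas 2.3.3 and NumPy 2.4.6 under Python 3.11.15.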

Additional observations from a re-analysis of the deposited data

How the results depend on the processing

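Over 8 results, 56 alternatives were computed, and 38 of them left direction and call as they were (for untested values, within the interval). The left-arm share of 29.4% stayed below that of the other autosomes under all 12 alternatives. It was 27.8% among the stronger 50% of the list by number, 30.8% with neighbours merged, 32.3% and 30.2% with a centre of 33.3% of the length or from 30% to 70%, and 27.5% to 44.0% in single replicate lists, where replicate 2 passed (42.2% whole, 27.5% for its strongest peaks) and replicate 1 did not (44.0% and 34.8%). Density turned from above to below the other autosomes among the stronger 50% (5.50 against 5.53 per Mb). It was 160.5 to 169.7 per Mb in single replicate lists, below the others in replicate 2 and past the threshold there (adjusted p = 0.0036, exact binomial). The central share turned to 57.1% against 58.9% among the stronger 50%, and was 58.5% to 60.0% in single replicate lists, past the threshold in replicate 2 (Fisher's exact adjusted p = 0.0098). The share with a neighbour turned to 11.9% against 9.68% among the stronger 50% and passed at 5.78% with overlapping peaks merged. It was 10.5% to 10.6% in single replicate lists shortened to the length of the combined list. In the whole replicate 1 list the share was 58.0% on II against 56.1% on the other autosomes, so the direction turned. In the whole replicate 2 list it was 60.1% against 63.2%. These whole-list shares were not tested and are not among the alternatives. The overlap of replicate 1 peaks with replicate 2 no longer passed at 30.2% (reciprocal overlap of 50%), 29.7% (centres within 200 bp), 37.0% and 57.2% (the 5000 and 1000 strongest of each list), 39.0% (left arms left out) or 36.8% (III or IV left out). The reverse overlap turned to 27.1% against 31.3% on left arms alone. The share of II peaks found in both replicates moved to 100% among the stronger 50%, and was 98.3% to 99.4% with 1 replicate required. The count of the densest window stayed within its interval, at 17 to 28 peaks per Mb, but with windows of 0.5 Mb the densest was at 14 Mb on the right arm and not at 5 Mb. The shortened single replicate lists for the left-arm share, the split by left arm and leaving out an autosome were added after the data were seen. The cause of these changes was not tested. No paired analysis was possible because the inputs, numbered like the ChIP libraries, were not analysed here. Leaving out a replicate could not be applied to the overlap between replicates.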
